A study of Rattus norvegicus with 6 samples.

Results

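The genes described here encode the proteins that license replication origins, open them and copy DNA at the fork, together with enzymes that supply deoxynucleotides and regulators of entry into S phase. They were taken from a list of 56 gene symbols. Of these, 52 had a probe set annotated with the symbol, out of 15037 genes measured. Mcm5, Rpa1, Chaf1a and Uhrf1 had no named probe set and were not analysed here. Each measured member was represented by 1 probe set. Of the 52 members, 38 had a mean log2 signal over all 6 arrays that exceeded the median negative-control probe set (3.95) by 1 log2 unit or more and are called detected. The other 14 are called dim, and the sizes of their differences are uncertain. Cdc6 lay just under that limit (0.99 above the negative controls) and Gmnn just over it (1.05).

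Primary hepatocytes from livers of 8-week-old male Sprague-Dawley rats were plated on collagen in medium with serum, and expression was measured on Affymetrix arrays. For 3 arrays the cells had been given trimethylamine N-oxide (TMAO) at 50 µM over 30 h, and for the other 3 they had none (Control). TMAO forms in the liver by oxidation of trimethylamine, a product of the gut flora. The labels name biological repeats but not the animals or isolations behind them, so the p-values measure only the spread between these arrays, and the number of arrays limits the precision. TMAO replicate 3 stood apart on the first principal component of all genes, which held 30.8% of the variance. Control replicate 3 lay furthest out on the second component, which held 25.4%. Differences named here that shrank by over 1.5 times or turned sign without TMAO replicate 3 are also given without it.

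A cell copies its DNA by first loading an inactive helicase on origins and later switching it on. The origin recognition complex (ORC), with Cdc6 and Cdt1, places a ring of 6 MCM subunits around DNA, and geminin (Gmnn) blocks Cdt1 so that origins are not loaded again after S phase has begun. Kinases then recruit Cdc45 and the GINS complex, which turn the ring into the moving helicase that the polymerases, the clamp PCNA and its loader follow. Many of these genes are transcribed at the start of S phase under E2F transcription factors. Hepatocytes of the adult liver are mostly quiescent and can enter the cycle after loss of liver mass or when growth factors act on them in culture.

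The sequences around the gene starts are shown first because E2F sites are a known feature of these promoters. The windows run from 250 bases before to 50 bases after the start and come from RefSeq, rat build GRCr8. They were searched on both strands for 4 E2F forms, TTTCCCGC, TTTCGCGC, TTTGCCGC and TTTGGCGC. A form was found in 716 of all 33469 windows (2.14%) and, counted by gene symbol, in 651 of 27457 genes (2.37%). Among the members, 47 had a window and 21 of these held a form (44.7%). The 5 windows below were chosen after the values were seen. They belong to the members whose TMAO signal was lower at an unadjusted p under 0.05 and whose window held a match. They therefore do not bear on whether E2F forms go with the differences. Capitals mark the bases of the E2F matches. Gmnn lies at chr17:40729584-40729883 (plus strand), Mcm2 at chr4:122918045-122918344 (minus strand), Mcm3 at chr9:30733697-30733996 (minus strand), Mcm6 at chr13:42404303-42404602 (minus strand) and Rfc3 at chr12:5836318-5836617 (plus strand).
Gmnn: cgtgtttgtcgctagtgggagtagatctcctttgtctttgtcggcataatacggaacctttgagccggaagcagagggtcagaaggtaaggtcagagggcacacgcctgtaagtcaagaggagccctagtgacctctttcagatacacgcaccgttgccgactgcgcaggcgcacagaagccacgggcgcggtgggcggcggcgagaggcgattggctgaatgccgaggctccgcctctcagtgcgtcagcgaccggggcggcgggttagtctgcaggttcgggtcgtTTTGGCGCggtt
Mcm2: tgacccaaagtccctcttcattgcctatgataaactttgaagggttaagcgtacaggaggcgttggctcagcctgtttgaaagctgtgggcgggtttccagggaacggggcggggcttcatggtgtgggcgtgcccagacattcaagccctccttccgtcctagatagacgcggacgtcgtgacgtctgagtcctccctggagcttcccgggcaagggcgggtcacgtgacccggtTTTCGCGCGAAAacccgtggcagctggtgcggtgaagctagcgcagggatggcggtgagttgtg
Mcm3: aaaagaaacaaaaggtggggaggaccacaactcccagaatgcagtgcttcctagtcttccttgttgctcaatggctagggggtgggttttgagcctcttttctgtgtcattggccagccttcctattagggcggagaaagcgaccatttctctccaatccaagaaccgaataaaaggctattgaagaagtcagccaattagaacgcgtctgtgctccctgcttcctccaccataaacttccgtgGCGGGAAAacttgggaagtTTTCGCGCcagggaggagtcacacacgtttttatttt
Mcm6: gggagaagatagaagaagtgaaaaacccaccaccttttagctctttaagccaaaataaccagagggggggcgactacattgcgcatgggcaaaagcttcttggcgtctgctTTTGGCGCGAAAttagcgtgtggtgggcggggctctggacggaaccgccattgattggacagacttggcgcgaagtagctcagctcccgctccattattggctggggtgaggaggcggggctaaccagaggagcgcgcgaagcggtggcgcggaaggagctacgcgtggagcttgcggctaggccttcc
Rfc3: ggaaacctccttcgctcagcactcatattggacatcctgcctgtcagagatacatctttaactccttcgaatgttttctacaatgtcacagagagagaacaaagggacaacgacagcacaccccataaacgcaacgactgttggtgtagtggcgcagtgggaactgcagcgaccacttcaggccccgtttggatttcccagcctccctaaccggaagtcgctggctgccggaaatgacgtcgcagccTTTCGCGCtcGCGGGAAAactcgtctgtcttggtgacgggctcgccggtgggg

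In Mcm2 and Mcm6, a match on the plus strand and one on the minus strand overlapped, so that 12 bases in a row stand in capitals. The Mcm2 pair began 14 bases before the gene start and the Mcm6 pair 139 bases before it. Mcm3 had its matches 6 bases before and at base 14 after the start, Rfc3 had them 3 bases before and at base 8, and Gmnn had 1 match at base 39. Cdc7, also lower at that level, had a window with no match, and for Rrm2 no window was available here. A match is a description of these letters and not evidence of binding.

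**Figure D1:**
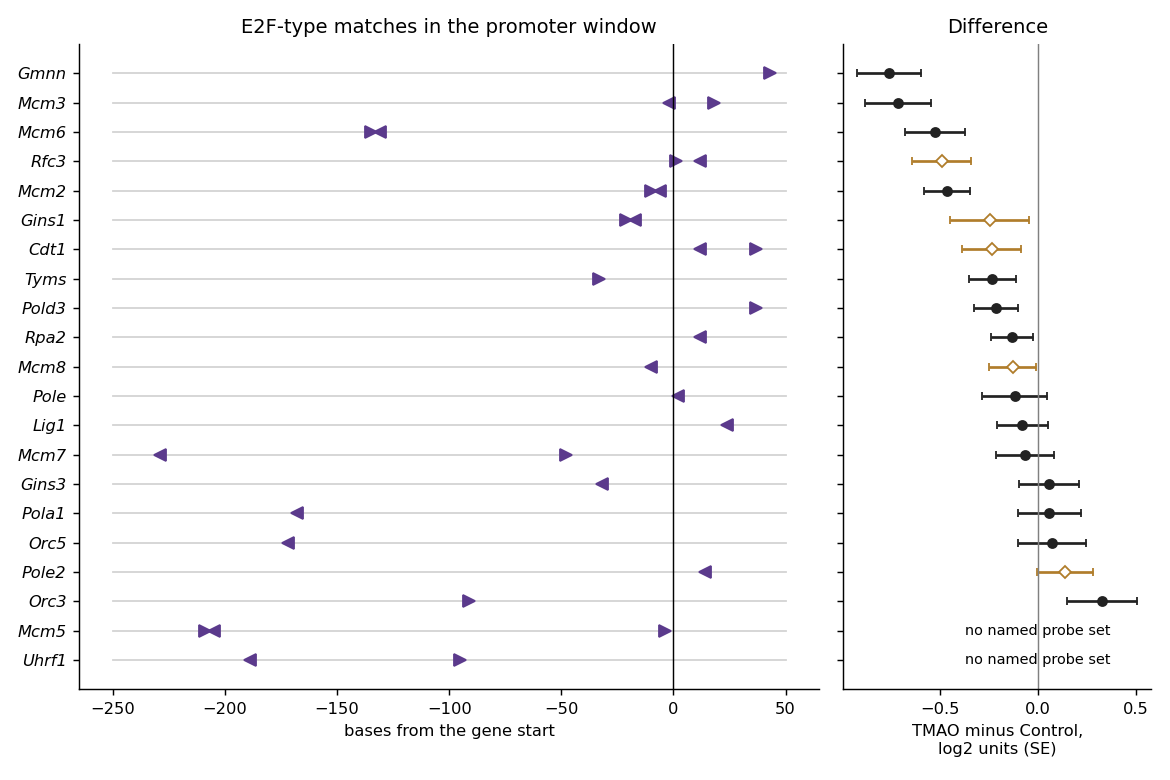
Positions of the E2F matches in the promoter windows of the 21 members that hold one (left panel, bases from the gene start; arrowheads point along the strand of the match), beside each member's difference, TMAO minus Control, in log2 units with its standard error (right panel; filled circles detected, open diamonds dim). Gmnn, Mcm3, Mcm6, Rfc3 and Mcm2 lie at the top with the most negative differences. Orc3, Pole2, Orc5, Pola1 and Gins3 lie on the positive side, and Mcm5 and Uhrf1 had no named probe set.

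The 19 measured members with a match had a median difference of -0.13 (from -0.76 to 0.33), and the 24 measured members whose window held no match had one of -0.14 (from -0.52 to 0.48). Means were lower under TMAO in 14 of the 19 and in 20 of the 24, against 51% of all genes. Lower signals at an unadjusted p under 0.05 were found in 5 of the 19 and in 1 of the 24, against 2.48% of all genes. All TMAO arrays lay below all Control arrays in 8 of the 19 and in 3 of the 24, against 5.33% of all genes. No test was made of this contrast.

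Hepatocytes exposed to TMAO had lower mean signals than Control for 39 of the 52 replication genes, where 51% of all genes were lower. The median difference of the members was -0.12 log2 units, against -0.0035 over all genes. The lowest p-values were those of geminin and of the MCM helicase subunits Mcm3, Mcm2 and Mcm6, with fitted levels of 0.591, 0.610, 0.725 and 0.694 of Control. The TMAO means of Gmnn and Mcm3 were less than 1 log2 unit above the negative controls, so these 2 sizes are uncertain. Of the 6 ORC subunits 4 had higher and 2 lower means under TMAO, and both primase subunits had higher means. No member passed the test across all genes: 0 of 52 had an adjusted p under 0.05 in limma, where 4 of 15037 genes (0.0266%) did, and the lowest adjusted p of a member was 0.367.

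At an unadjusted p under 0.05, 7 of 52 members (13.5%) were lower under TMAO, against 2.48% of all genes, and 0 of 52 were higher, against 3.01%. The 7 were Gmnn, Mcm3, Mcm2, Mcm6, Cdc7, Rfc3 and Rrm2. In 11 members (21.2%) all 3 TMAO arrays lay below all 3 Control arrays, against 5.33% of all genes, and in 0 all TMAO arrays lay above, against 5.51%. The count of 7 came to 11 without Control replicate 2 and to 10 without TMAO replicate 3. Of the 7, 6 stayed under that p with each array left out in turn, and Rrm2 did so in 3 of 6 cases. With 1 array left out, the difference shrank by over 1.5 times or turned sign for 39 of the 52 members. The sign turned with 1 array left out for 17 of the 52 members, none of them among the 7. Of the detected members 28 of 38 were lower, with a median of -0.10, and of the dim members 11 of 14, with a median of -0.14. This split is not independent of the differences, since 3 members (Gmnn, Mcm3 and Rrm2) counted as detected with TMAO means under the limit and Control means above it. The medians were 0.0017 over all 9951 detected genes and -0.01 over all 5086 dim genes.

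**Figure D2:**
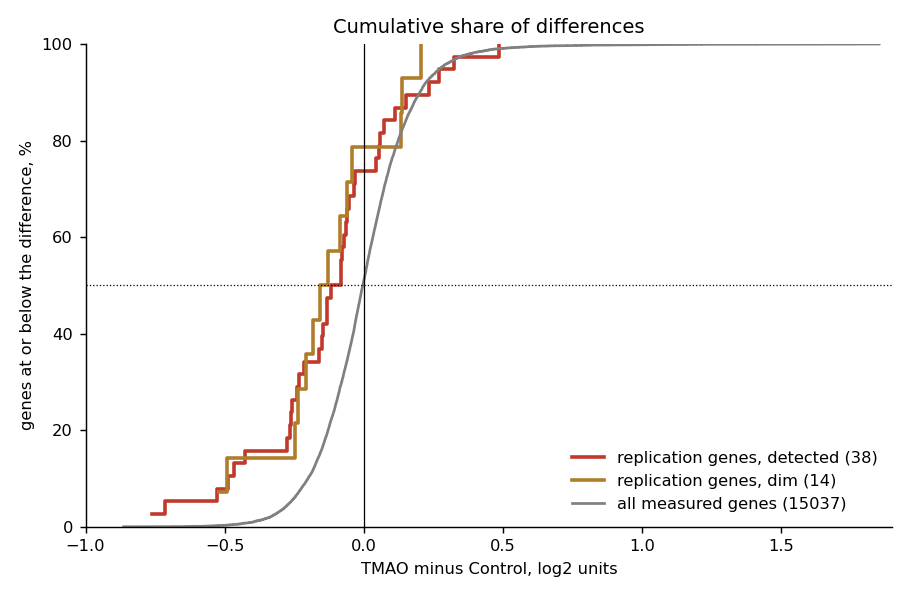
Cumulative share of genes (vertical axis, %) at or below each difference, TMAO minus Control (horizontal axis, log2 units), for 38 detected members, 14 dim members and all 15037 genes. Both member curves run to the left of the curve of all genes over most of their length and meet it on the positive side, where Orc2 is the last detected member at 0.48.

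The replicative helicase showed the lowest median of the groups with more than 1 measured member. All 5 measured subunits of the MCM ring had lower means, with a median of -0.46, and 3 of them, Mcm2, Mcm3 and Mcm6, had no overlap between the groups. Averaged over the 5 subunits, the log2 signal was 5.88, 5.74 and 5.89 on TMAO arrays, against 6.32, 6.08 and 6.34 on Control arrays. The lowest Control array was thus above the highest TMAO array.

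Mcm2, the subunit that also binds histones at the fork, had log2 signals of 6.26, 6.33 and 6.05 on TMAO arrays, against 6.74, 6.63 and 6.66 on Control arrays. The Control arrays lay close together and all above the TMAO arrays, and the difference was -0.46 ± 0.12 (SE), with an adjusted p of 0.581. Mcm3 had 4.82, 4.92 and 5.06 on TMAO arrays, against 5.82, 5.27 and 5.85 on Control arrays. Control replicate 2 was the Control array nearest to the TMAO arrays, and the difference was -0.71 ± 0.17 (adjusted p 0.526). The TMAO mean of Mcm3 lay just under the limit for detection, so the size of this difference is uncertain. For Mcm6 the signals were 5.42, 4.92 and 5.28 on TMAO arrays, against 5.60, 5.70 and 5.89 on Control arrays. TMAO replicate 2 was the lowest array, and the difference was -0.53 ± 0.15 (adjusted p 0.725).

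The other measured ring subunits overlapped between the groups. Mcm4 had signals of 6.09, 6.06 and 6.31 on TMAO arrays, against 6.44, 6.22 and 6.62 on Control arrays. TMAO replicate 3 lay above Control replicate 2, and the difference was -0.27 ± 0.14 (adjusted p 0.954), or -0.18 without Control replicate 3. Mcm7 had signals of 6.80, 6.49 and 6.77 on TMAO arrays, against 7.01, 6.56 and 6.68 on Control arrays. The groups lay over each other, the difference was -0.07 with a 95% confidence interval from -0.40 to 0.27, and its sign turned to 0.06 without Control replicate 1 and 0.03 without TMAO replicate 2. With 1 array left out at a time, the differences ran from -0.52 to -0.38 for Mcm2, from -0.90 to -0.61 for Mcm3 and from -0.63 to -0.38 for Mcm6.

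**Figure D3:**
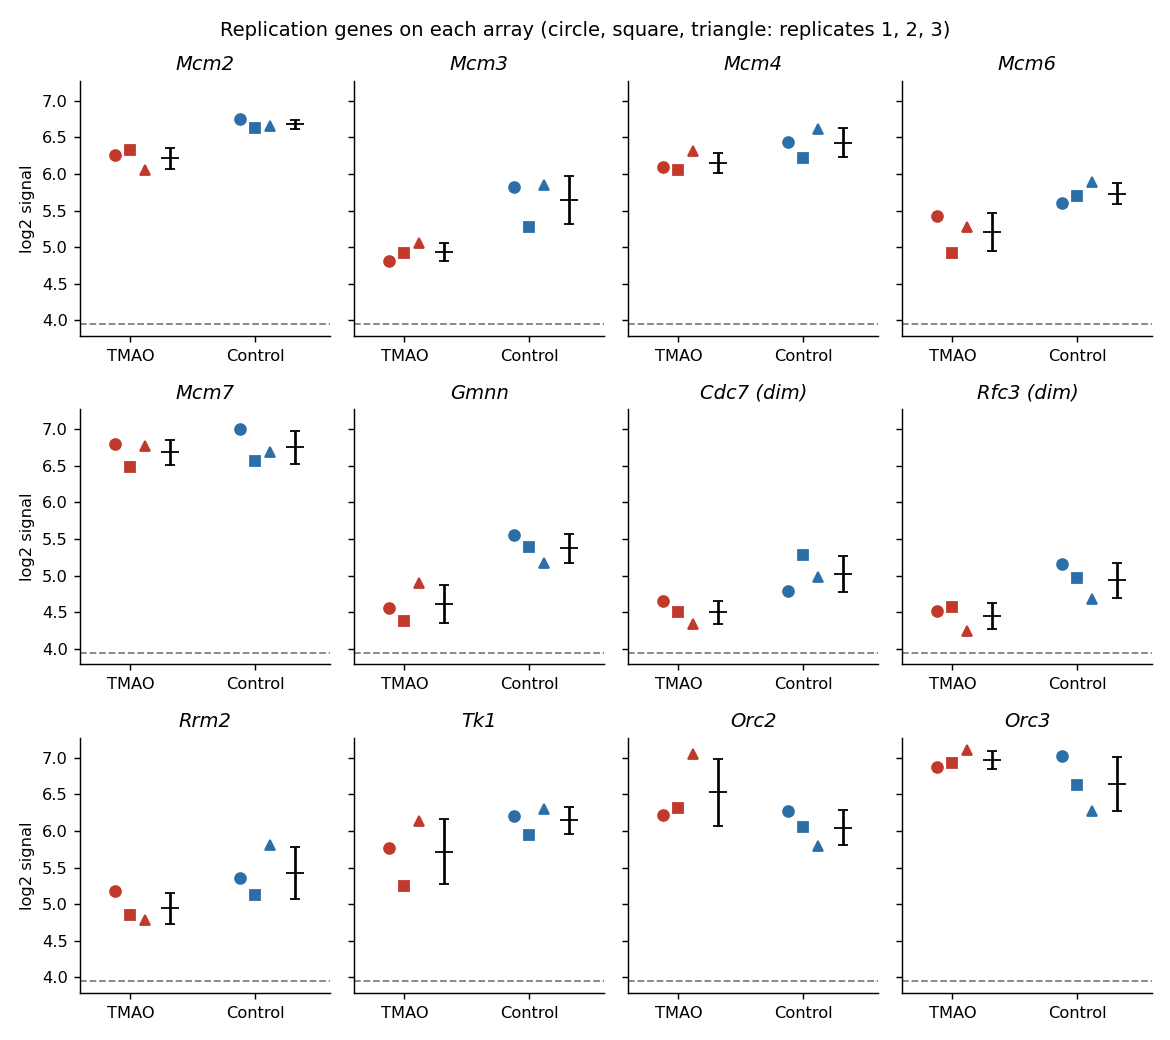
Log2 signals (vertical axis) of 12 members on each TMAO array (red) and each Control array (blue), with the mean and SD of each group in black (n = 3 each); the dashed line is the median of the negative controls, 3.95. In Mcm2, Mcm3, Mcm6, Gmnn, Cdc7 and Rfc3 every red point lies below every blue point, while Orc2 and Orc3 overlap and have higher TMAO means.

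Among the licensing factors, geminin had the lowest p of all members. Gmnn had log2 signals of 4.56, 4.38 and 4.90 on TMAO arrays, against 5.56, 5.39 and 5.17 on Control arrays. There was no overlap between the groups, and the difference was -0.76 ± 0.16 (adjusted p 0.367), from -0.90 to -0.64 with 1 array left out. All 3 TMAO signals were less than 1 log2 unit above the negative controls, so the size of this difference is uncertain as well. Cdt1, the loading factor that geminin inhibits, was dim, with 4.33, 4.35 and 4.09 on TMAO arrays, against 4.64, 4.20 and 4.64 on Control arrays. Control replicate 2 lay within the TMAO range, and the difference was -0.24 ± 0.15 (adjusted p 0.963), or -0.16 without TMAO replicate 3. Cdc6, the ATPase that loads the ring together with ORC, was dim as well and had a difference of -0.09 ± 0.11, or -0.06 without TMAO replicate 3.

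The subunits of ORC, which marks origins throughout the cycle, had differences on both sides of 0. Orc2, Orc3, Orc4 and Orc5 were detected and had higher means under TMAO, while Orc1 and Orc6 were dim, with differences of -0.06 ± 0.14 and -0.04 ± 0.14. Orc1 turned to 0.02 without Control replicate 1 and 0.0043 without TMAO replicate 1 and was -0.04 without TMAO replicate 3, and Orc6 to 0.08 without Control replicate 3 and 0.04 without TMAO replicate 2. Orc2 had signals of 6.22, 6.31 and 7.04 on TMAO arrays, against 6.27, 6.06 and 5.80 on Control arrays. TMAO replicate 3 was the highest array, the difference was 0.48 ± 0.22 (adjusted p 0.929), and it came to 0.22 without that array. Orc3 had 6.87, 6.92 and 7.11 on TMAO arrays, against 7.02, 6.63 and 6.28 on Control arrays. The groups overlapped, and the difference of 0.33 ± 0.18 (adjusted p 0.958) came to 0.14 without Control replicate 3. Orc5 had a difference of 0.07 ± 0.17, and its sign turned to -0.08 without Control replicate 3 and -0.03 without TMAO replicate 3. Orc4 had signals of 7.21, 7.02 and 7.47 on TMAO arrays, against 7.38, 7.002 and 7.20 on Control arrays. Its 95% confidence interval ran from -0.30 to 0.38, and the sign of the difference (0.04) turned to -0.05 without Control replicate 2 and -0.08 without TMAO replicate 3.

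Of the factors that switch the helicase on, counted together with the related Mcm8, 6 of 9 had lower means, and 6 of the 9 were dim. Cdc7, the kinase that phosphorylates the MCM ring, had 4.65, 4.51 and 4.34 on TMAO arrays, against 4.80, 5.29 and 4.98 on Control arrays. The groups did not overlap, and the difference of this dim gene was -0.52 ± 0.15 (adjusted p 0.726). Dbf4, the regulatory subunit of the same kinase, was dim too and had 4.13, 3.97 and 5.25 on TMAO arrays, against 4.56, 3.99 and 4.40 on Control arrays. TMAO replicate 3 stood far above the other arrays, and the difference of 0.13 ± 0.31 turned to -0.27 without it and to -0.03 without Control replicate 2.

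Cdc45, which joins the ring to form the active helicase, had 4.15, 4.09 and 4.17 on TMAO arrays, against 4.25, 4.25 and 4.39 on Control arrays. All TMAO arrays lay below all Control arrays, but even the highest array was within 1 log2 unit of the negative controls, and the difference was -0.16 ± 0.11 (adjusted p 0.963). Mcm10, an initiation factor, was dim and had 4.81, 4.54 and 4.62 on TMAO arrays, against 4.76, 4.85 and 4.90 on Control arrays. TMAO replicate 1 lay within the Control range, and the difference was -0.18 ± 0.12. Mcm8, a relative of the ring subunits that works in recombination repair, had a difference of -0.13 ± 0.12, or -0.08 without Control replicate 1, and was dim.

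The GINS subunits, which bind the ring beside Cdc45, went both ways. Gins1 was dim, with a difference of -0.25 ± 0.20 that came to -0.02 without Control replicate 3. Gins2 had a difference of -0.05 ± 0.14 and turned to 0.03 without Control replicate 2 and 0.0010 without Control replicate 3. Gins4 had signals of 5.45, 5.17 and 5.59 on TMAO arrays, against 5.09, 5.04 and 5.37 on Control arrays. Control replicate 3 lay within the TMAO range, and the difference was 0.23 ± 0.15 (adjusted p 0.963), or 0.14 without TMAO replicate 3. Gins3 had 5.44, 5.25 and 4.92 on TMAO arrays, against 5.27, 5.18 and 4.99 on Control arrays. The groups lay over each other, and the difference of 0.05 turned to -0.06 without TMAO replicate 1 and -0.02 without Control replicate 3.

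The sliding clamp, its loader and the single-strand binding proteins had 7 of 8 lower means, with a median of -0.14. Rfc3, a subunit of the clamp loader, had 4.51, 4.58 and 4.25 on TMAO arrays, against 5.16, 4.96 and 4.69 on Control arrays. The groups did not overlap, and the difference of this dim gene was -0.49 ± 0.15 (adjusted p 0.785). Rfc2, another subunit of the loader, had 5.82, 5.90 and 5.73 on TMAO arrays, against 5.87, 6.02 and 6.29 on Control arrays. Control replicate 1 lay within the TMAO range, and the difference was -0.24 ± 0.13 (adjusted p 0.958), or -0.13 without Control replicate 3. The large subunit Rfc1 had -0.15 ± 0.13, or -0.03 without Control replicate 2, and Rfc4 and Rfc5 had -0.06 ± 0.14 and -0.08 ± 0.21. Rfc4 turned to 0.06 without Control replicate 1, and Rfc5 to 0.08 without TMAO replicate 1, 0.05 without Control replicate 3 and 0.0044 without Control replicate 1.

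Pcna, the clamp that holds polymerases on DNA and a common marker of proliferation, had 7.41, 6.82 and 7.53 on TMAO arrays, against 7.66, 7.29 and 7.60 on Control arrays. TMAO replicate 2 was the lowest array and the groups overlapped. The difference of -0.26 ± 0.19 (adjusted p 0.963) came to -0.05 without TMAO replicate 2. Of the subunits of the single-strand binding protein RPA, Rpa2 had a difference of -0.13 ± 0.11 with no overlap between the groups, and Rpa3 had one of 0.27 ± 0.22 with overlap. The value for Rpa3 came to 0.07 without Control replicate 2 and 0.08 without TMAO replicate 3.

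**Figure D4:**
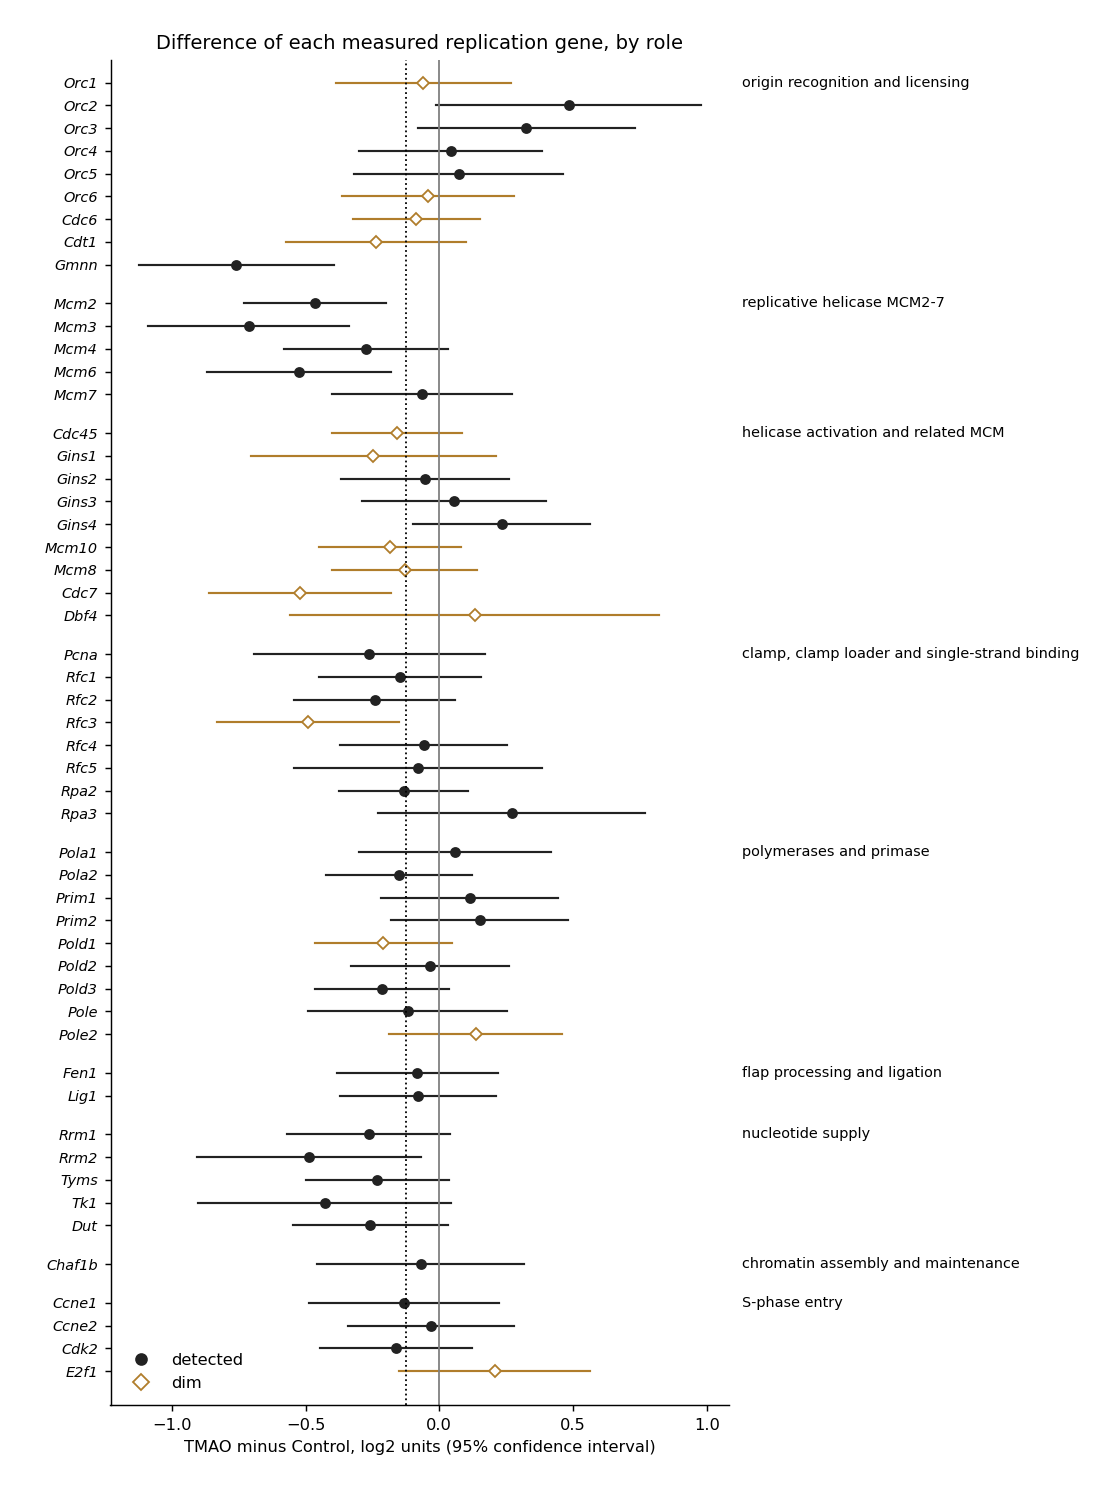
Differences of all 52 measured members, TMAO minus Control, in log2 units with 95% confidence intervals, arranged by role (filled circles detected, open diamonds dim); the dotted line is the median of the members, -0.12. The intervals of 7 members lie wholly below 0 (Gmnn, Mcm2, Mcm3, Mcm6, Cdc7, Rfc3 and Rrm2) and 0 lie wholly above it.

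Genes that make deoxynucleotides were lower in all 5 cases, with a median of -0.26. Rrm2, the S-phase subunit of ribonucleotide reductase, had signals of 5.18, 4.85 and 4.79 on TMAO arrays, against 5.35, 5.12 and 5.81 on Control arrays. TMAO replicate 1 lay above Control replicate 2, and the difference of -0.49 ± 0.19 (adjusted p 0.895) came to -0.29 without Control replicate 3. The TMAO mean of Rrm2 lay just under the limit for detection, so the size of this difference is uncertain. Rrm1, the large subunit of the same enzyme, had 7.20, 7.08 and 7.43 on TMAO arrays, against 7.63, 7.34 and 7.55 on Control arrays. TMAO replicate 3 lay within the Control range, and the difference was -0.26 ± 0.13 (adjusted p 0.955).

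Tyms, which makes thymidylate, had 8.61, 8.60 and 8.66 on TMAO arrays, against 9.01, 8.85 and 8.70 on Control arrays. No overlap was seen, with a narrow gap between TMAO replicate 3 and Control replicate 3, and the difference was -0.23 ± 0.12 (adjusted p 0.955), or -0.15 without Control replicate 1. Tk1, the thymidine kinase of S phase, had 5.77, 5.25 and 6.14 on TMAO arrays, against 6.20, 5.94 and 6.29 on Control arrays. TMAO replicate 2 was the lowest array, and the difference of -0.43 ± 0.21 (adjusted p 0.948) came to -0.19 without it. Dut, which removes dUTP so that uracil is kept out of DNA, had 6.82, 7.06 and 6.77 on TMAO arrays, against 7.29, 7.07 and 7.06 on Control arrays. TMAO replicate 2 lay at the edge of the Control range, and the difference was -0.26 ± 0.13 (adjusted p 0.954).

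The polymerases and primase had no shared direction, with 5 of 9 lower and a median of -0.04. Pold3, an accessory subunit of polymerase delta, had 8.31, 8.46 and 8.49 on TMAO arrays, against 8.64, 8.70 and 8.57 on Control arrays. The groups did not overlap, and the difference was -0.21 ± 0.11 (adjusted p 0.958). Pold1, the catalytic subunit of the same polymerase, was dim, with 3.81, 3.70 and 3.83 on TMAO arrays, against 4.07, 3.86 and 4.05 on Control arrays. These signals lay at the level of the negative controls. Pold2, a further subunit, had 7.52, 7.58 and 7.18 on TMAO arrays, against 7.47, 7.42 and 7.50 on Control arrays. The groups overlapped, the interval of the difference ran from -0.33 to 0.26, and the sign of the difference (-0.04) turned to 0.09 without TMAO replicate 3.

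The primase subunits Prim1 and Prim2, which lay down the RNA primers, had differences of 0.11 ± 0.15 and 0.15 ± 0.15. Both came close to 0 without TMAO replicate 3, at 0.0058 and 0.05. The polymerase alpha subunits that work with them had 0.06 ± 0.16 (Pola1) and -0.15 ± 0.12 (Pola2), and Pola1 turned to -0.11 without Control replicate 3. Pole, the leading-strand polymerase, had -0.12 ± 0.17 and turned to 0.06 without TMAO replicate 3, and its partner Pole2 was dim (0.14 ± 0.14) and turned to -0.01 without TMAO replicate 1. The flap nuclease Fen1 and the ligase Lig1, which finish the lagging strand, had -0.08 ± 0.13 each. Fen1 turned to 0.01 without Control replicate 3, and Lig1 came to -0.0026 without TMAO replicate 3 and -0.02 without Control replicate 1. Chaf1b, of the histone chaperone that follows the fork, had -0.07 ± 0.17 and turned to 0.05 without TMAO replicate 2 and 0.03 without Control replicate 1.

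The regulators of S-phase entry had differences between -0.16 and 0.21. Ccne2, a cyclin E that activates Cdk2, had 7.02, 7.10 and 7.46 on TMAO arrays, against 7.28, 7.19 and 7.20 on Control arrays. The TMAO arrays lay on both sides of the Control arrays, and the interval of the difference ran from -0.34 to 0.28. Its value of -0.03 turned to 0.06 without TMAO replicate 1 and 0.02 without TMAO replicate 2. Ccne1, the other cyclin E, had -0.13 ± 0.16 and Cdk2 had -0.16 ± 0.13. Without TMAO replicate 2 they came to -0.04 and -0.10, and Ccne1 also came to -0.04 without Control replicate 3. E2f1, a member of the E2F family that acts at such sites, was dim with a difference of 0.21 ± 0.16, or 0.10 without TMAO replicate 2.

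Genes that act beside the members were read from 3 further lists in the same fit, and 0 of their genes passed the adjusted threshold. Of 33 other replication genes, 20 had lower means with a median of -0.02. At an unadjusted p under 0.05 there were 3 lower (9.09%, against 2.48% of all genes) and 1 higher (3.03%, against 3.01%). The lower ones were Fbxo5, an inhibitor of the anaphase-promoting complex (-0.39 ± 0.13), Dnmt1, which copies DNA methylation behind the fork (-0.39 ± 0.14), and Pclaf, a partner of PCNA (-0.42 ± 0.19). The higher one was Ssrp1, of the histone chaperone FACT (0.32 ± 0.12). The value for Pclaf came to -0.22 without TMAO replicate 2. Its TMAO mean was less than 1 log2 unit above the negative controls, so the size of this difference is uncertain. In Fbxo5 and Dnmt1 all TMAO arrays lay below all Control arrays, and in Ssrp1 all lay above.

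Of 24 regulators of the passage from G1 to S, 17 had lower means with a median of -0.10. At that p 1 was lower and 1 higher (4.17% each), against 2.48% and 3.01% of all genes. Counts of 1 are too few to set apart from these shares. Ccnd1, the cyclin D that drives G1 and marks hepatocytes entering the cycle, had 6.87, 6.86 and 6.42 on TMAO arrays, against 7.38, 7.01 and 7.21 on Control arrays. The groups did not overlap, and the difference was -0.48 ± 0.16 (adjusted p 0.852). Cdkn1b, the Cdk2 inhibitor p27, had 7.22, 7.06 and 7.49 on TMAO arrays, against 7.05, 6.94 and 6.79 on Control arrays. Every TMAO array was above every Control array, and the difference of 0.33 ± 0.14 (adjusted p 0.909) came to 0.21 without TMAO replicate 3. The S-phase cyclin Ccna2 had -0.19 ± 0.12 with no overlap, or -0.12 without Control replicate 1. The growth regulator Myc had 0.44 ± 0.22 with overlap, or 0.18 without TMAO replicate 3.

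Of 20 mitosis genes, 10 were detected and the others dim, and 16 of the 20 had lower means with a median of -0.17. At an unadjusted p under 0.05, 4 were lower (20%, against 2.48% of all genes) and 0 higher (against 3.01%). The 4 were Ccnb1, the mitotic cyclin (-0.40 ± 0.13), Kif23, a motor of cytokinesis (-0.44 ± 0.15), Tpx2, which nucleates spindle microtubules (-0.48 ± 0.17), and the proliferation marker Mki67 (-0.49 ± 0.21). Mki67 came to -0.31 without TMAO replicate 2.

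These are bulk RNA measurements, so fewer cycling cells and less RNA of these genes per cell cannot be told apart. Markers of the cell types that a hepatocyte preparation can hold were read on the same arrays. Of 15 measured hepatocyte markers 13 were detected, with Alb, the gene of serum albumin, at 7.96 above the negative controls and Cps1 at 1.04. Cyp2e1 and Cyp2c11 were dim, at 0.87 and 0.80. Of the 15, 11 had lower means under TMAO with a median of -0.10. The mean log2 signal of the 15 was 8.51 to 8.84 on TMAO arrays and 8.70 to 8.91 on Control arrays. Of 15 macrophage markers 9 were detected, with mean signals of 5.25 to 5.45 on TMAO arrays and 5.39 to 5.68 on Control arrays, and 12 of the 15 had lower means under TMAO with a median of -0.12. Of 9 endothelial markers 7 had lower means, also with a median of -0.12. These shares and medians were near those of the replication genes, 39 of 52 and -0.12. At an unadjusted p under 0.05 in limma, 1 of 15 hepatocyte, 2 of 15 macrophage and 1 of 9 endothelial markers were lower. At that p, 0, 1 and 0 were higher. All TMAO arrays lay below all Control arrays in 1, 1 and 0 of them, and above in 0. For the members these counts were 7 of 52 lower, 0 higher, 11 below and 0 above. Over all genes the shares were 2.48%, 3.01%, 5.33% and 5.51%. The lowest p of the detected hepatocyte markers was that of Tdo2, a tryptophan-degrading enzyme (-0.51 ± 0.16), and the lowest of the macrophage markers that of Cd163, a scavenger receptor (-0.39 ± 0.13). In both all TMAO arrays lay below all Control arrays, with adjusted p of 0.813 and 0.856 in limma. The TMAO mean of Cd163 was less than 1 log2 unit above the negative controls, so the size of its difference is uncertain. The highest difference of the hepatocyte markers was that of Tat (0.31 ± 0.16, or 0.16 without TMAO replicate 3). Among the macrophage markers it was that of Tyrobp (0.42 ± 0.18, or 0.24 without Control replicate 3). Both Tat and Tyrobp were detected and overlapped between the groups. The macrophage markers Clec4f, Adgre1 and Ptprc lay below the negative controls. Of the stellate and fibroblast markers Tagln had the highest signal, at 7.71 above the negative controls. Detected markers were 7 of 14 for stellate cells and fibroblasts, 2 of 9 for endothelial cells, 4 of 7 for cholangiocytes and 0 of 8 for lymphocytes. For each of these 4 lists the mean signals of the TMAO and Control arrays overlapped. Among the 8 lymphocyte markers, all dim, 1 was lower at an unadjusted p under 0.05 in limma and 2 were higher. The lower one was Lck (-0.62 ± 0.12, adjusted p 0.278), with all TMAO arrays below all Control arrays. In the 2 higher ones all TMAO arrays lay above. The part of any cell type in the replication genes was not tested.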

How the data were processed

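Biotin-labelled cRNA of 6 hepatocyte samples was hybridised to Affymetrix arrays, per the labels' protocols. The authors deposited log2 signals, 1 per probe set and array, and the labels do not state their background correction, normalization and probe summary. No role or version is attached to limma, the tool listed in the submitters' processing notes. Another deposited table has 6 numbered columns that no label ties to a sample, and these were not used. Of 24871 probe sets, 1683 controls were left out, 1153 of them negative controls. Of the other 23188, 15049 had a gene symbol in the platform annotation, and the probe set with the highest mean was kept where a gene had several (10 genes), leaving 15037 genes.

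TMAO was set against Control with limma 3.58.1 in R 4.3.3, with lmFit on group alone and eBayes, two-sided, over all 6 arrays and all 15037 genes, with Benjamini-Hochberg adjustment over all of them at a threshold of 0.05. Differences are TMAO minus Control in log2 units, with standard errors (SE) or 95% confidence intervals. The fit was also run on simulated data with independent noise for each gene and no shifts shared by a whole array. That run does not bear on the outlying arrays here, and no result rests on it. Members and lists were chosen with earlier results of these data known. Every member is named, and values by array are given for the MCM ring, the 16 detected members of lowest p, the 4 of highest p and 6 dim members of lowest p, with Dbf4 added after its values were seen. Of each list of pathway genes, up to 4 detected genes of lowest p are named. The markers named, and E2F members' sequences, were chosen after their values were seen. Exo1 was added because it passed the unadjusted threshold. Alternatives were other normalizations, probe set rules, filters and variance models, the replicate number as a block, and leaving out each array. Promoter windows are from RefSeq, build GRCr8. Protein sequences were not used here.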

Additional observations from a re-analysis of the deposited data

How the results depend on the processing

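With each of the 14 other settings and for all 52 members, 0 members passed the adjusted threshold (only 25 members were tested with the filter on dim genes). The filter on dim genes left 19 lower members of those 25, and 1 member lower at an unadjusted p under 0.05, since Mcm2 alone of the 7 was left to test. The count of members higher at that p, 0 in the reported fit, was 1 with quantile normalization, with trend and robust estimation and with array weights. With 1 array left out, it ran from 0 to 2, the count of lower members at that p from 7 to 11, the count of members with lower means from 34 to 40, and the median of the members from -0.17 to -0.10. With the replicate number as a block (replicate block), 9 members were lower at an unadjusted p under 0.05, against 7. Deviations of equally numbered arrays correlated by 0.13, 0.10 and -0.01. The values for numbers 1 and 2 were the highest between any TMAO and Control array, while number 3 did not correlate best with its own number. These values cannot decide whether equal numbers are pairs. The labels do not say that equal numbers share an animal, so the numbers were not taken as pairs. A limit of 0.5 or 2 log2 units for dim members gave medians of -0.12 and -0.08 over the members above it, against -0.10. Of 68 gene differences (52 members and 16 genes of other lists), 49 kept their sign with each of the 14 settings and 19 did not. With 1 array left out, the differences ran from -0.17 to 0.057 for Ccne2, -0.22 to 0.052 for Chaf1b, -0.27 to 0.37 for Dbf4, -0.19 to 0.011 for Fen1, -0.19 to 0.035 for Gins2 and -0.064 to 0.20 for Gins3. They ran from -0.16 to 0.062 for Mcm7, -0.19 to 0.016 for Orc1, -0.077 to 0.15 for Orc4, -0.079 to 0.21 for Orc5, -0.13 to 0.082 for Orc6 and -0.11 to 0.21 for Pola1. They ran from -0.11 to 0.088 for Pold2, -0.21 to 0.056 for Pole, -0.011 to 0.22 for Pole2, -0.18 to 0.063 for Rfc4, -0.29 to 0.077 for Rfc5, -0.28 to 0.12 for Chek1 and -0.14 to 0.023 for Polh. Array weights turned Orc1 to 0.050, Orc5 to -0.028, Pold2 to 0.049, Pole to 0.019 and Rfc5 to 0.020. The cause of these turns was not tested.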

Other observations

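Genes of the replication checkpoint and of DNA repair, which act when forks stall, had means on both sides of Control. Of 14 measured genes of that list, 8 had lower means under TMAO, with a median of -0.02, and 0 passed the adjusted threshold in limma. At an unadjusted p under 0.05 there was 1 lower and 1 higher gene (7.14% each), against 2.48% and 3.01% of all genes. Counts of 1 are too few to set apart from these shares. The lower one was Exo1, a nuclease of mismatch repair and end resection, which was dim and had a difference of -0.44 ± 0.18, or -0.27 without Control replicate 3. The higher one was Rad17, which loads the checkpoint clamp, with log2 signals of 7.46, 7.39 and 7.91 on TMAO arrays, against 7.28, 7.16 and 7.26 on Control arrays. All TMAO arrays lay above all Control arrays, and the difference of 0.35 ± 0.15 (adjusted p 0.909) came to 0.19 without TMAO replicate 3. The kinases Chek1 and Wee1, which delay entry into mitosis, had -0.13 ± 0.19 and 0.20 ± 0.16. Wee1 came to 0.08 without TMAO replicate 3, and Chek1 turned to 0.12 without TMAO replicate 1. Polh, a polymerase that copies past lesions, had -0.07 ± 0.12 and turned to 0.02 without TMAO replicate 2.

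In the same promoter windows, the letters CCAAT were found on either strand in 26 of the 47 members with a window (55.3%), against 37.5% of all windows and 39.6% of genes. TTTGAA, the core of an element of cell cycle promoters, was found in 6 of the 47 (12.8%), against 18.3% of all windows and 19.4% of genes. Measured members with CCAAT had a median difference of -0.15 (22 members) and those without it one of -0.08 (21 members), and this contrast was not tested.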
